A study of Mus musculus with 3186 samples.

Results

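The 894 cells compared here are brain pericytes, selected on the RNA level of Spp1, the gene of osteopontin. Spp1-positive pericytes had at least 100 CPM of Spp1 (reads of a gene scaled to the reads of all genes), and Spp1-negative pericytes had no Spp1 read. Pericytes were taken from the 1484 cells of mice carrying Pdgfrb(BAC)eGFP and NG2dsRed, a pair of reporters that together label mural cells. A cell counted as a pericyte with at least 20 CPM each of the pericyte genes Kcnj8 and Vtn, under 200 CPM of the smooth muscle actin gene Acta2 and under 1000 CPM of the endothelial gene Cldn5. This gate held 1077 of the 3186 cells of the series, of which 179 were Spp1-positive, 715 were Spp1-negative and 183 lay between, with an Spp1 read but under 100 CPM. Both sides therefore share the genotype, the C57BL/6 strain, the adult age of 12 to 15 weeks and a label that names no treatment, and were separated by the rule alone. Cells were sorted by fluorescence into 384-well plates and read by SMART-seq2, which copies whole transcripts of single cells without molecular identifiers. The series also holds cells of Cldn5(BAC)eGFP mice, which mark endothelium, and of Pdgfra-H2BGFP mice, which mark perivascular cells and the oligodendrocyte lineage. The comparison asks which genes go with Spp1 among pericytes, within plates.

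Osteopontin is a secreted, phosphorylated glycoprotein that binds integrins and CD44 and is best known from bone matrix and from injured tissue. Pericytes are mural cells embedded in the basement membrane of capillaries, where they support the blood-brain barrier and take part in the control of capillary tone. Mural cells change along the vessel from the smooth muscle of arterioles, rich in contractile proteins, to the pericytes of the capillary bed.

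The labels name no animal, so cells are not replicates and each side is 1 sample. No test across samples was possible and no p-value is given. Values are CPM of the summed reads of all cells of a side, with exact Poisson intervals, and shares carry exact binomial (Clopper-Pearson) intervals at 95%. These intervals cover counting error only, since PCR reads without molecular identifiers are not independent molecules. The spread is shown over the 4 plates, called Mural3, Mural4, Mural5 and Mural6 in the cells' names, which the labels do not tie to animals. Spp1-positive cells had between 99905 and 496791 reads (median 338051) in a median of 2218 genes. Spp1-negative cells had between 103768 and 593278 reads (median 329225) in a median of 2223 genes.

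Few gated cells lay near the threshold of Spp1. Its values chose the sides, so they are given as a description. The 179 Spp1-positive cells spanned 163 to 43133 CPM with a median of 2231 CPM, and 136 of them had at least 1000 CPM. The lowest positive cells had 163, 175, 239 and 289 CPM, from 52, 45, 104 and 70 reads. The highest cells below the threshold had 85.5, 79.1, 26.3 and 18.0 CPM, from 40, 35, 10 and 6 reads. Of the 183 cells between the sides, 180 lay under 20 CPM, and their median was 1 read. Between 26.3 and 163 CPM there were the 2 cells just named.

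**Figure D1:**
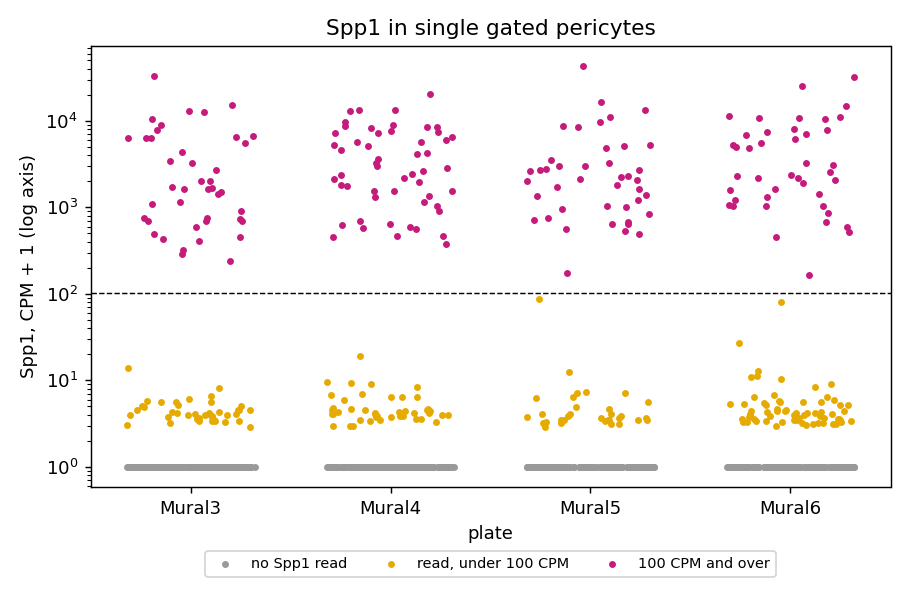
Spp1 in each of the 1077 gated pericytes, as CPM + 1 on a log axis, by plate; colours mark the 3 classes and the dashed line the threshold of 100 CPM. Positive cells lie between 163 and 43133 CPM, and 180 of the 183 intermediate cells lie under 20 CPM.

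Spp1-positive pericytes were found on every plate. They made up 42 of 268 gated cells (15.7%, 11.5 to 20.6) on Mural3, 53 of 259 (20.5%, 15.7 to 25.9) on Mural4, 42 of 265 (15.8%, 11.7 to 20.8) on Mural5 and 42 of 285 (14.7%, 10.8 to 19.4) on Mural6. The 4 intervals overlapped, and the share over all plates was 16.6% (14.4 to 19.0). The level of Spp1 in the pooled positive cells was also similar, at 4025, 4663, 4314 and 5291 CPM on the plates in turn.

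Among cells other than the gated pericytes, Spp1 was rare in the contractile end of the mural cells and frequent in some Pdgfra-line cells. Among mural cells with at least 1000 CPM of Acta2, 1 of 252 reached 100 CPM of Spp1 (0.397%, 0.0100 to 2.19). In the Cldn5 line 0 of 1445 cells did, which allows a share of up to 0.208% by 3 counts of the total and 0.255% by the exact interval. In the Pdgfra line, 41 of the 80 cells with at least 100 CPM of the collagen-associated genes Dcn and Col1a2 did (51.2%, 39.8 to 62.6), and their pool had 2360 CPM. This pool was not cleared of cells meeting the pericyte gate's values, and it had 3241 CPM of Vtn and 569 CPM of Kcnj8. Of 14 cells of the other lines that met those values, 7 had at least 100 CPM of Spp1. Low Spp1 reads were spread differently: 26.6% of the Acta2-rich mural cells had an Spp1 read, with 1.59 CPM in the pool, against 0.415% of the cells of the Cldn5 line. A read under 100 CPM was found in 17.0% of gated pericytes and in 26.2% of Acta2-rich cells, and what these low reads stand for was not tested. These comparison pools were chosen after values of these data had been seen.

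Spp1 lies on the forward strand of chromosome 5 (mm10, 104435118 to 104441050, GENCODE M21). Its promoter is shown with those of Sfrp2 and Casq2, to compare the letters before the start sites of genes higher and lower with Spp1. Sfrp2 has the largest ratio of the genes named in the question, and Casq2 the lowest of the 15 lower genes named below. The sequences are the 250 bases before the start in RefSeq (GRCm38.p6, the assembly of mm10), at chr5:104434861-104435110, chr3:83766071-83766320 and chr3:102086165-102086414, each on the forward strand and 5′ to 3′. Capitals mark the 2 motifs found, TATAAA (the TATA box core) and TGTGGT (the core bound by Runx factors, here as its reverse complement).
Spp1: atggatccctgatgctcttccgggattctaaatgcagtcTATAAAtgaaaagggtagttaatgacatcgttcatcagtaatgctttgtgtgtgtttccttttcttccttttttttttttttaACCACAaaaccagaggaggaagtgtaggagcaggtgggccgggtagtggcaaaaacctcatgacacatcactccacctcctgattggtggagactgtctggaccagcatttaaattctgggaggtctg
Sfrp2: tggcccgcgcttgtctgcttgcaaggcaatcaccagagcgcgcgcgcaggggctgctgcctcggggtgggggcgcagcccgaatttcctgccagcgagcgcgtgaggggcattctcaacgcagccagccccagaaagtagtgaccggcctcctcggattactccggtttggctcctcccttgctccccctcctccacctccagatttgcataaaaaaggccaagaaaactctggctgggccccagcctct
Casq2: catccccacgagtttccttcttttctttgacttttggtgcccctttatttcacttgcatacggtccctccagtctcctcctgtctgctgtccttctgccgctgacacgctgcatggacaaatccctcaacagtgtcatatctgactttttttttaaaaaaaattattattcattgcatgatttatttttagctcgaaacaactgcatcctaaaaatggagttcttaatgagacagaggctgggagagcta
The Spp1 window held TATAAA on the forward strand, starting 211 bases before the start, and TGTGGT on the reverse strand, starting 128 bases before it. The Sfrp2 and Casq2 windows held none of the motifs searched, which were these 2 and the CArG box of serum response factor, each on both strands. Over all 32851 promoters of the same length, 12.4% held TATAAA, 14.0% held TGTGGT and 1.47% held a CArG box, and over the 6066 counted genes with an entry the shares were 7.24%, 12.4% and 1.34%. Among the named genes with an entry, TATAAA stood in 1 of 12 higher genes (Apoe) and 1 of 9 lower genes (Ackr3), TGTGGT in 1 (Sgpl1) and 2 (Ackr3 and Rasl12), and a CArG box in 1 (Igf2) and 0. A match is a description of letters and not a site.

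Both sides had all 14 pericyte markers, with 11 of them lower in the Spp1-positive pool and 8 lower on every plate. The 14 summed to 73017 CPM in Spp1-positive cells (68293 to 77176 over plates) and to 72709 CPM in Spp1-negative cells (66594 to 77488). The gate gene Vtn gave most of both sums, and without it they were 29486 and 33143 CPM. Of the 14, 13 stayed within 2-fold and Art3, an ADP-ribosyltransferase, was lower at 840 against 1850 CPM. The potassium channel subunit Abcc9 (1546 against 2214 CPM), Rgs5 (3029 against 4200), a regulator of G protein signalling, and the NG2 proteoglycan gene Cspg4 (1556 against 2235) were lower on every plate. So were the receptor genes Pdgfrb (4263 against 5332 CPM) and Notch3 (578 against 1074) and the interferon-induced membrane protein gene Ifitm1 (291 against 496). The P-type ATPase Atp13a5 was higher on every plate, at 11717 against 9745 CPM. The gate genes differed little: Kcnj8 had 3171 against 3480 CPM and Vtn 43531 against 39566.

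Markers of other cells moved in part with the sides. The 10 fibroblast markers summed to 1353 CPM in Spp1-positive cells (994 to 1626 over plates) and 762 in Spp1-negative cells (700 to 870), ranges that did not overlap. Apod gave most of that gap, Slc6a13, a GABA and taurine transporter, had 449 against 253 CPM, and without Apod the 9 others summed to 808 against 633 CPM, compared with 29069 in the Dcn and Col1a2 cells. Pdgfra and Lum were at 0 in Spp1-positive cells and under 1 CPM in Spp1-negative cells, Mfap4 was at 0 in both, and Col1a1 (0.284 against 0.132 CPM) and Dpt (0.318 against 0) were under 1 CPM. Col1a2 had 211 against 204 CPM, Col3a1 76.0 against 58.2 and Dcn 71.3 against 117. Endothelial markers summed to 1106 CPM (996 to 1338) against 818 (707 to 952), ranges that did not overlap, of which Emcn gave 792 against 482. The other endothelial markers were split. Flt1 (151 against 146 CPM), Itm2a, Ly6c1 and Cdh5 were higher in the pool. Tek (7.75 against 23.8 CPM), Slco1a4 (18.4 against 38.1), Pecam1 (4.30 against 13.9), Kdr and Cldn5 were lower. Smooth muscle markers summed to 3646 CPM (3265 to 4210) against 4904 (4574 to 5305), ranges that also did not overlap. Myl9 gave most of both sums (2916 against 3934 CPM, lower on every plate), and Acta2, which the gate holds low, had 5.14 and 5.15. Microglia markers summed to 178 CPM (98.9 to 259) against 321 (78.9 to 1009), with Cx3cr1, Tmem119, Tyrobp and Aif1 at 0 in Spp1-positive cells. Astrocyte markers summed to 215 CPM (141 to 325) against 102 (73.6 to 127), ranges that did not overlap, of which Slc1a3 gave 165 against 68.3, while Aqp4 had 4.35 and Gfap 0.0836 CPM in Spp1-positive cells. Of the 9 other marker sets, ependyma markers summed to 254 against 306 CPM, choroid plexus markers to 47.3 against 72.9, oligodendrocyte markers to 41.8 against 29.8 and neuron markers to 24.3 against 22.4. The sets for perivascular macrophages (3.61 against 10.9 CPM), oligodendrocyte progenitors (3.30 against 2.85) and erythroid, T or NK cells and neutrophils lay lower still. When the cells highest in fibroblast markers other than Apod were left out, the log2 ratio of Apod was 2.27, that of Sfrp2 1.88 and that of Aldh1a1 2.71. The part of the other marker sets in the results was not tested, apart from the alternative without cells high in fibroblast, microglia or macrophage markers. That alternative kept 113 of 179 Spp1-positive and 573 of 715 Spp1-negative cells. Leaving out the cells highest in fibroblast markers other than Apod kept 149 and 651.

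Of 7884 genes with at least 20 CPM on either side, Spp1 left out, 119 were at least 2-fold higher in the Spp1-positive pool and higher on every plate, or 1.51% of the genes, and 259 were lower by the same rule, or 3.29%. The ratio was taken on the log2(CPM + 1) scale, and its median over all genes was -0.01. A difference in the same direction on every plate, of any size, was found for 18.0% of the genes. The Spp1-positive side has fewer cells (179 against 715), so genes read in few cells are measured less evenly there. Leaving out each gene's single highest cell on each side changed the counts to 54 higher and 482 lower. A single cell weighs more among 179 cells than among 715, so this step by itself tends to lower ratios. Without Mural3, Mural4, Mural5 or Mural6 in turn, with direction asked of the remaining plates alone, 218, 208, 190 and 193 genes were higher and 394, 441, 409 and 415 lower. The named genes were therefore limited to those read in at least 25% of the cells of the higher side, and the 15 with the largest ratio in each direction were taken. Over the 3092 genes read in at least 25% of cells on either side, 24 were higher (0.776%) and 30 lower (0.97%).

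Among the secreted factors, Sfrp2, a secreted Frizzled-related protein that binds Wnt ligands, was 3.29-fold higher with Spp1 (429 CPM, 423 to 434, against 130, 129 to 132). On Mural3, Mural4, Mural5 and Mural6 in turn it had 505, 407, 424 and 394 CPM in Spp1-positive cells and 82.7, 166, 139 and 133 CPM in Spp1-negative cells. Every positive value lay above every negative one. Sfrp2 reached 100 CPM in 75 of 179 Spp1-positive cells (41.9%, 34.6 to 49.5) and in 142 of 715 Spp1-negative cells (19.9%, 17.0 to 23.0). It was nearly absent from Acta2-rich mural cells (0.697 CPM) and from endothelial cells of the Cldn5 line (0.114 CPM), and low in the Dcn and Col1a2 cells (9.80 CPM). The gene lies on the forward strand of chromosome 3, 83766321 to 83774316.

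Igf2, an insulin-like growth factor, had 464 CPM against 166 CPM. Its plate values were 545, 606.5, 457 and 222 CPM in Spp1-positive cells and 182, 223, 97.1 and 177 CPM in Spp1-negative cells. Positive was above negative on each plate, while the lowest positive plate, Mural6, lay just under the highest negative plate, Mural4. Itih5, a secreted protein of the hyaluronan-binding inter-alpha-trypsin inhibitor family, had 746 against 294 CPM, and the collagen chain Col7a1 had 80.1 against 30.7 CPM. Cathepsin K (Ctsk), a protease that cleaves collagen, had 174 against 62.9 CPM. These 4 genes are those of the 15 whose plate values on the sides overlapped, and each was still higher on every plate.

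Aldh1a1, which oxidises retinaldehyde to retinoic acid, was 6.77-fold higher (400 CPM, 395 to 405, against 59.1, 58.1 to 60.1), the largest ratio among the named genes. Its positive values were 470, 723, 203 and 142 CPM on the plates in turn, and its negative values 75.1, 66.8, 38.1 and 60.6 CPM. The sides did not overlap, although the positive values themselves spread widely, with Mural6 lowest. The number of cells with the RNA differed as well, since 52 of 179 Spp1-positive cells (29.1%, 22.5 to 36.3) reached 100 CPM against 43 of 715 (6.01%, 4.39 to 8.02). Of all 107 gated cells at or above that level, 48.6% were Spp1-positive, beside 16.6% of gated cells as a whole.

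Apolipoprotein D (Apod), a lipocalin that carries small hydrophobic molecules, had 474, 597, 542 and 542 CPM on the plates in Spp1-positive cells and 84.0, 143, 117 and 170 CPM in Spp1-negative cells. Its pooled values were 544 and 129 CPM, a fold of 4.22, and the plates did not overlap. Apod reached 100 CPM in 98 of 179 cells (54.7%, 47.2 to 62.2) against 172 of 715 (24.1%, 21.0 to 27.4). Apoe, the main lipid carrier made in the brain, had 623, 729, 572 and 874 CPM against 235, 263, 272 and 309 CPM, again without overlap. Sgpl1, the lyase that breaks down sphingosine-1-phosphate, had 227 against 75.1 CPM. The 10 members counted of the lipid and retinoid list went different ways. Aldh1a1, Apod and Apoe were over 2-fold higher, none was over 2-fold lower and the list's median log2 ratio was -0.06. The sterol synthesis gene Hmgcs1 had 77.8 against 103 CPM.

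Bace2, an aspartyl protease related to the beta-secretase of amyloid precursor protein, had 212, 195, 227 and 326 CPM in Spp1-positive cells and 30.4, 77.2, 43.9 and 53.6 CPM in Spp1-negative cells. The mitochondrial protein gene Chchd10 had 79.0, 106, 64.3 and 55.6 CPM against 14.9, 18.6, 4.66 and 20.5 CPM. Neither gene's sides overlapped, with pooled folds of 4.69 and 5.43. The other named higher genes were Slc6a17, a vesicular amino acid transporter (202 against 65.7 CPM), Gas7 (146 against 48.8), Arl4a, a small GTPase (177 against 65.2), and Mtss1l (75.4 against 29.4), an actin-binding protein gene.

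The other 2 genes of the question were less tied to Spp1. Slc30a10, a manganese and zinc exporter, is high in both kinds of pericyte and was 1.44-fold higher with Spp1. It had 1234, 1192, 1245 and 1107 CPM on the plates against 765, 834, 830 and 876 CPM, so the sides did not overlap, but the difference stayed under 2-fold. Nts, the gene of the peptide neurotensin, had 92.4, 164, 188 and 98.2 CPM in Spp1-positive cells and 139, 58.4, 48.2 and 65.7 CPM in Spp1-negative cells. Mural3 had the opposite order to the other plates. The pooled log2 ratio was 0.86, or 1.39 without Mural3, and Nts did not meet the rule. It reached 100 CPM in 33 of 179 Spp1-positive cells (18.4%, 13.04 to 24.9) and 90 of 715 Spp1-negative cells (12.6%, 10.2 to 15.2), intervals that overlap.

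Among the 15 lower genes, the calcium store gene Casq2, calsequestrin of the sarcoplasmic reticulum, stood apart. It had 64.7, 12.9, 9.69 and 101 CPM in Spp1-positive cells on the plates in turn and 732, 502, 905 and 858 CPM in Spp1-negative cells. The lowest negative plate was far above the highest positive one, and the pooled values were 44.0 (42.3 to 45.7) and 761 CPM (757 to 764), 17.3-fold apart. A single cell gave 25.5% of the Casq2 reads of the Spp1-positive side. Casq2 reached 100 CPM in 10 of 179 Spp1-positive cells (5.59%, 2.71 to 10.03) and in 274 of 715 Spp1-negative cells (38.3%, 34.7 to 42.0).

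Serpini1, the gene of neuroserpin, an inhibitor of tissue plasminogen activator, had 166, 76.1, 62.1 and 27.8 CPM against 518, 561, 541 and 446 CPM. Ackr3, a scavenger receptor for the chemokine CXCL12, had 320, 313, 526 and 482 CPM against 1165, 1261, 1345 and 1409 CPM. In neither gene did a Spp1-positive plate reach a Spp1-negative one, and their pooled levels were 6.49-fold and 3.18-fold lower. Cxcl12 itself had 1048 CPM with Spp1 and 702 without, a log2 ratio of 0.58 with 0.49 to 0.67 over plates.

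Cytoglobin (Cygb), a globin of mesenchymal cells, was the most even of the lower genes, with log2 ratios from -2.26 to -2.11 over the plates (29.6 against 139 CPM). The muscle membrane repair gene Dysf (15.1 against 73.5 CPM), the laminin-binding integrin subunit Itga7 (126 against 314), the sodium pump regulator Fxyd1 (17.1 against 47.4) and the neurturin receptor Gfra2 (52.5 against 128) were lower on every plate. So were the LIM protein gene Crip1 (27.6 against 83.3 CPM), the surface glycoprotein gene Cd200 (61.6 against 158), Rasl12 (97.1 against 247) and the long noncoding RNA Snhg18 (31.7 against 84.8). Smooth muscle myosin, Myh11, had 21.9 against 92.7 CPM, and Nrip2 had 4.70 against 27.5 CPM. Single cells carried 36.0% of the Myh11 reads and 66.9% of the Nrip2 reads of the Spp1-positive side, and without the top cell of each side the log2 ratios were -2.55 and -3.32. On the Spp1-negative side the top cells carried 5.89% and 10.3%, so leaving out top cells had to lower both ratios.

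**Figure D2:**
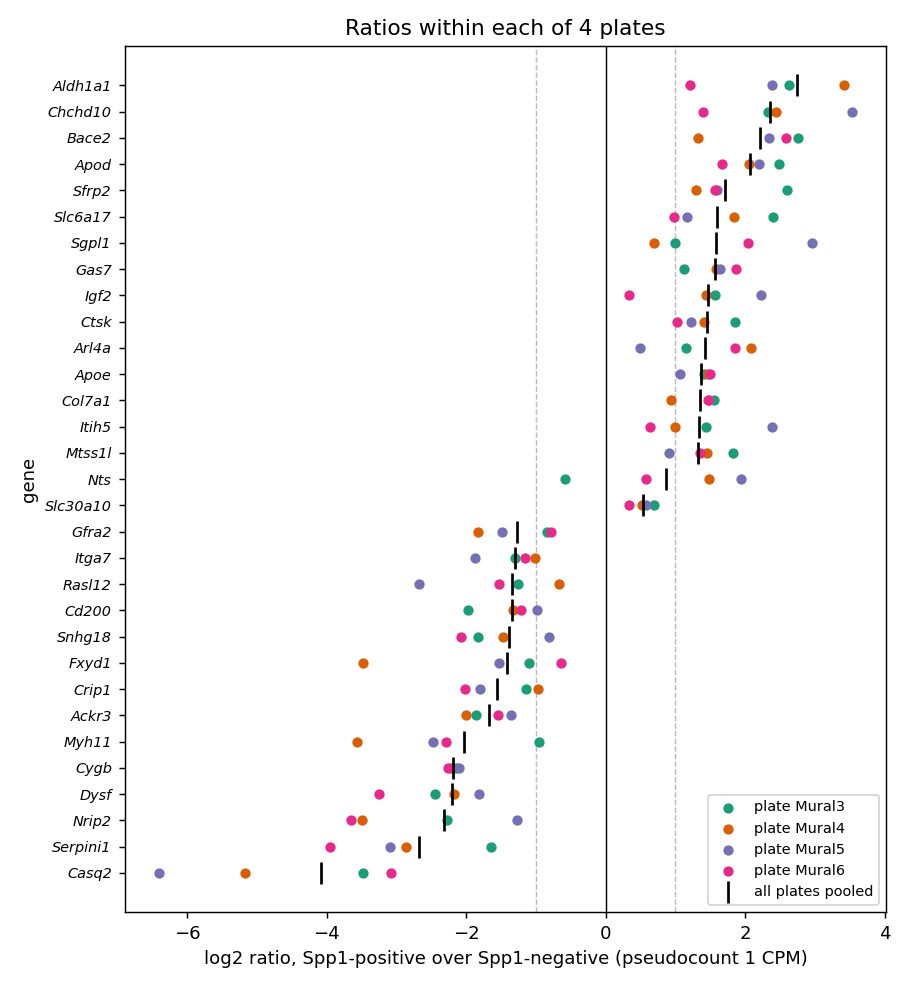
Log2 ratio of Spp1-positive over Spp1-negative pericytes for the 15 higher genes, Nts, Slc30a10 and 14 of the lower genes, with 1 point per plate and a bar for all plates pooled; dashed lines mark 2-fold. All points of each gene lie on the same side of 0 except for Nts, which has Mural3 at -0.59.

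Across the named genes, 8 of 15 higher and 8 of 15 lower genes reached 2-fold on every plate separately. The plate values of the sides did not overlap for 11 higher and 15 lower genes. Direction on every plate and a large pooled ratio were part of the rule that named these genes. The same counts were not made over all genes, so these counts describe the named genes and support nothing further. With every cell thinned to 90000 reads, the share of cells with a read was higher on the Spp1-positive side for all 15 higher genes and lower for all 15 lower genes. Before thinning the same held except for Nrip2, read in 41.3% of Spp1-positive and 40.7% of Spp1-negative cells. The direction of these shares is largely set by how the genes were chosen in the same cells. It was not counted over all genes, so it too is a description. For single cells the sides overlapped: in pairs of cells from the same plate, the Spp1-positive cell had the higher value in 56.7% to 69.6% of pairs for the higher genes and in 29.4% to 48.9% for the lower genes, ties counted evenly. In 7 named genes, Aldh1a1, Chchd10, Gas7, Igf2, Nrip2, Rasl12 and Slc30a10, an annotated gene on the opposite strand that is also in the count table overlaps. Whether counting used strand is not stated in the labels, so reads of such partners could not be told apart.

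The named genes were also read by the amount of Spp1 among the positive cells, which were divided into 43 with 100 to under 1000 CPM, 77 with 1000 to under 5000 CPM and 59 with 5000 CPM or more, all with similar median depth (319437, 338623 and 338292 reads). All 15 higher genes lay above their level in cells with no Spp1 read in each of the 3 classes, and 12 were higher in each next class. Of the 15 lower genes, 14 lay below it in each class and 10 were lower in each next class. Over the 3092 genes read in at least 25% of cells on either side, 17.5% lay above and 19.7% below the no-read level in each class, and 19.7% were higher and 19.1% lower in each next class. The named genes were chosen on these same positive and no-read cells and the classes on Spp1, so the side of the no-read level is largely set by that choice and the counts are a description. Gfra2 was the lower gene that was not below it in each class, with 137 CPM in the lowest class against 128 CPM in cells with no read.

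Apod had 129 CPM in cells with no Spp1 read, 185 in cells with a read under 100 CPM, and 200, 455 and 900 CPM in the 3 positive classes. Serpini1 had 516, 488, 221, 61.7 and 6.53 CPM, and Casq2 had 761, 779, 146, 15.5 and 12.0 CPM. Casq2 and Serpini1 were thus already lower in cells with modest Spp1. Cells with a read under 100 CPM lay nearer to the Spp1-negative than to the Spp1-positive level for 14 of the 15 higher and all 15 lower genes, beside 64.7% of the 3092 genes, and a large gap between the sides was part of how the 15 and 15 were chosen. The exception, on the log2 scale, was Sgpl1, at 134 CPM between 75.1 and 227.

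**Figure D3:**
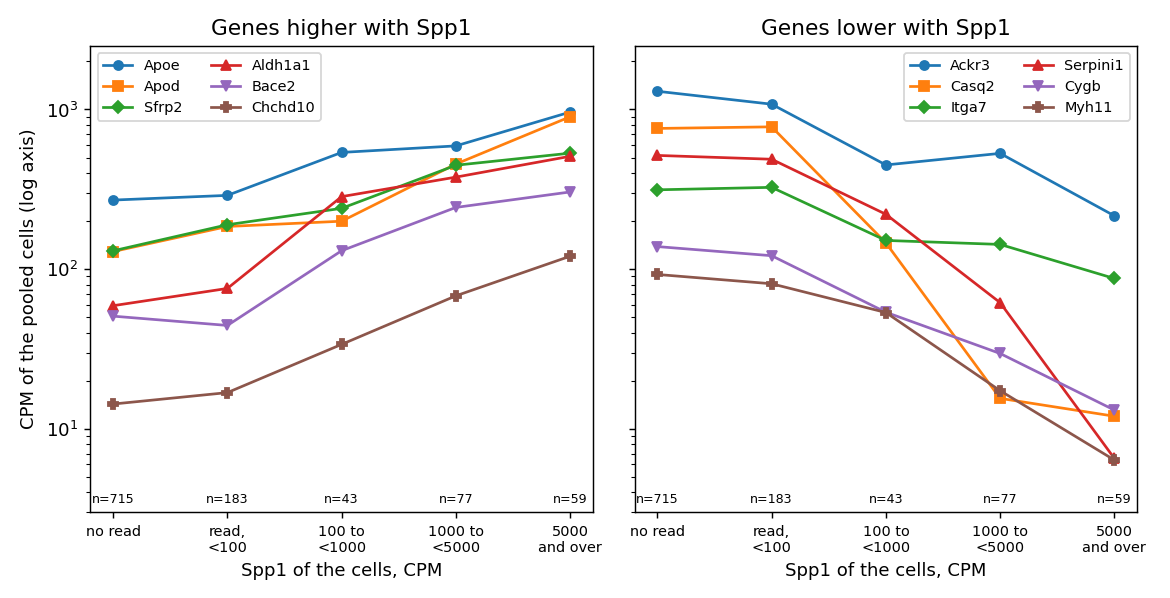
CPM (log axis) of 6 higher and 6 lower genes in gated pericytes pooled by their Spp1 level, with the number of cells below each class. Aldh1a1 goes from 59.1 to 509 CPM across the 5 classes and Serpini1 from 516 to 6.53 CPM.

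How often genes higher with Spp1 shared a cell varied from pair to pair. Among Spp1-positive cells with at least 100 CPM of Apod, 45.9% also had Sfrp2 at that level, against 37.0% of the other Spp1-positive cells. For Sfrp2 and Aldh1a1 the shares were 29.3% and 28.8%. The wider gaps were between Apoe and Igf2 (54.1% of Apoe cells against 35.1% of the others had Igf2) and between Aldh1a1 and Igf2 (63.5% against 41.7%). Spp1-negative cells had gaps in these 2 pairs as well, at 36.0% against 25.9% and at 58.1% against 28.1%. In Spp1-positive cells, other pairs were nearly level. For Apod and Igf2 the shares were 48.0% and 48.1%. No test was made of these shares.

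In other cells of the series, the named genes were spread unevenly. Of the 15 higher genes, 10 were over 2-fold lower in Acta2-rich mural cells than in Spp1-negative pericytes, beside 13.1% of the 3092 genes read in at least 25% of cells. Igf2 had 7.99 CPM there, Gas7 0.542 and Apod 9.95. Chchd10 alone was over 2-fold higher there, at 57.8 CPM against 14.3 in Spp1-negative pericytes. Of the 15 lower genes, 7 were over 2-fold higher in Acta2-rich cells, beside 4.88% of those genes, with Myh11 at 4596 CPM, Crip1 at 1811 and Nrip2 at 899. Casq2 did not belong to those 7, with 745 CPM in Acta2-rich cells and 761 in Spp1-negative pericytes.

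In the Dcn and Col1a2 cells, 7 of the 15 higher genes were over 2-fold higher than in Spp1-negative pericytes, beside 4.33% of the same genes. Apod had 12790.3 CPM there, Apoe 3951 and Itih5 3413. Sfrp2, Slc6a17, Bace2, Col7a1 and Mtss1l were below the Spp1-negative level in those cells. Of the 15 lower genes, 9 were over 2-fold lower there, beside 20.7%, while Cygb (795 CPM) and Fxyd1 (120 CPM) were over 2-fold higher. The named genes were chosen in part on their Spp1-negative level, which is also the base of these counts and of those in Acta2-rich cells. The genes set beside them were not chosen so, and the counts are a description. Fibroblast markers other than Apod moved only as given above, and their part in these patterns was not tested beyond the ratios without the cells highest in them.

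**Figure D4:**
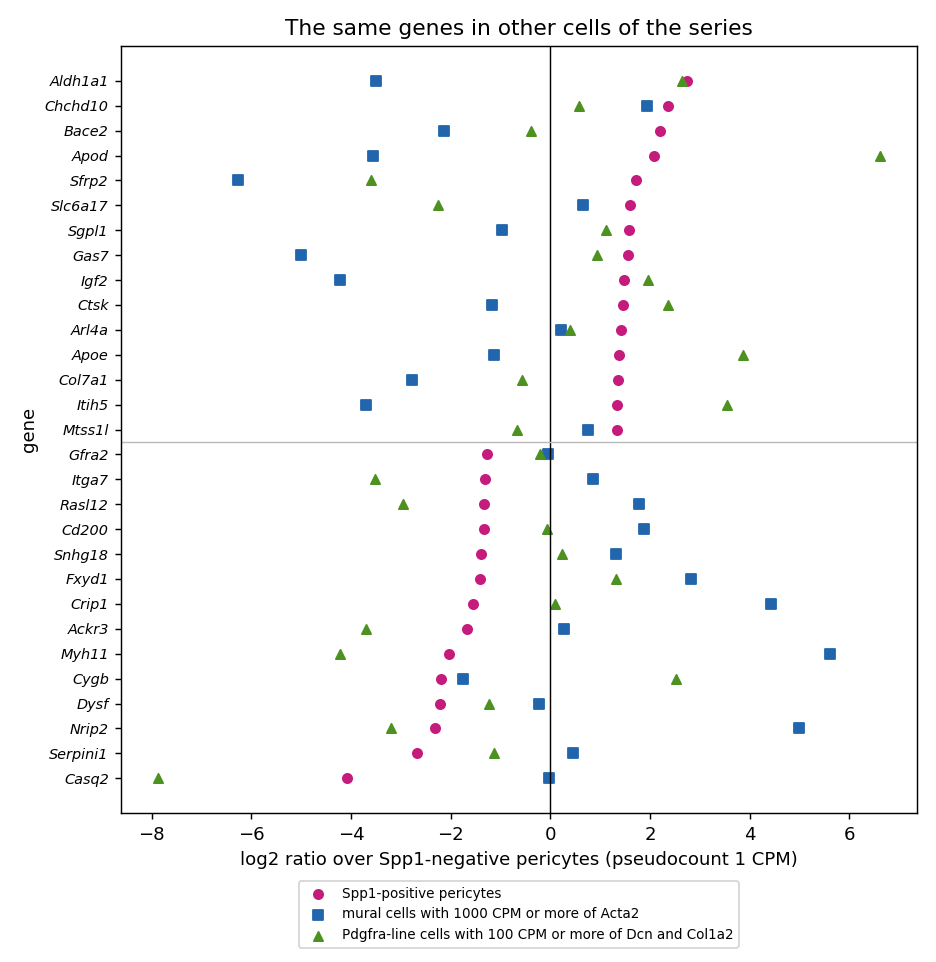
Log2 ratio over Spp1-negative pericytes of the 15 higher genes (top) and 14 of the lower genes (bottom) in Spp1-positive pericytes, in Acta2-rich mural cells and in Dcn and Col1a2 cells of the Pdgfra line. Squares lie more than 2-fold to the left for 10 of the higher genes, and triangles more than 2-fold to the right for 7 of them.

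Gene lists were read by the number of members at least 2-fold apart in the pools, beside 3.13% of all genes that were higher and 4.57% that were lower by this measure. Of 11 osteopontin receptor genes 7 were counted, none was 2-fold apart, and the median log2 ratio was 0.03. The integrin chain Itgb1 had 1130 against 1349 CPM, and Itgav 207 against 177. The mineralisation and phosphate list also had no member 2-fold apart among 8 counted (median 0.19). The matrix protein Sparc had 1590 against 2157 CPM, Mgp, an inhibitor of calcification, 433 against 562, the phosphate exporter Xpr1 104 against 83.8, and the osteogenic factor Runx2 37.9 against 31.2.

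The Wnt list had 3 of 17 members over 2-fold higher and none lower, with 13 above 0 and a median of 0.31. They were Sfrp2 and 2 Dickkopf family genes, Dkk3 (71.5 against 32.1 CPM, higher on every plate) and Dkk2 (25.0 against 11.0 CPM), whose plates ranged from -5.17 to 4.70 on the log2 scale and of whose Spp1-positive reads 43.1% came from 1 cell. The interstitial matrix list had the highest median, 0.42, with 12 of 17 members above 0. Ctgf (29.7 against 8.23 CPM) and Thbs2 (42.3 against 18.5) were over 2-fold higher and Col6a2 (20.3 against 48.2) lower. Thbs2 was not higher on every plate, and 1 cell gave 24.5% of its Spp1-positive reads. In the basement membrane list of 15, Col4a4 (14.3 against 36.8 CPM) was the member 2-fold apart. Lama2, a laminin chain, was lower on every plate at 486 against 740 CPM.

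The contractile list had the lowest median, -0.41, with 3 of 16 members above 0. Myh11 was over 2-fold lower and Srf, the serum response factor gene, higher in the pool (30.6 against 13.6 CPM) but not on every plate. Of 23 genes of mural signalling and channels, none was 2-fold higher, and 2 were lower, the calcium channel gene Cacna1h (43.0 against 95.6 CPM) and the endothelin receptor Ednrb. Ednrb had 1.34 against 54.9 CPM, read in 1.68% and 8.39% of cells, and 1 cell gave 97.5% of its reads on the Spp1-positive side. Rgs4, another regulator of G protein signalling, had 4914 against 3783 CPM. Of the 10 Notch pathway genes counted, 3 lay above 0 and none was 2-fold apart. The receptor Notch3 came closest, at 578 against 1074 CPM, lower on every plate, while Notch1 had 822 against 745 CPM.

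In the neuropeptide list of 10 (median -0.35), Ramp2, a partner of adrenomedullin receptors, was higher (45.3 against 14.8 CPM). Ednrb and the PACAP receptor Adcyap1r1 (40.7 against 93.8 CPM) were lower, the latter not on every plate. None of the 20 counted genes for zinc, manganese and copper was 2-fold apart. Slc30a10 was among the 3 highest of that list, with the metallothionein Mt1 (107 against 63.6 CPM) and the zinc transporter Slc30a5 (120 against 80.4 CPM). Among 22 transporters, 3 were higher: the large neutral amino acid carrier Slc7a5 (64.5 against 21.5 CPM), the glutamate carrier Slc1a3 (165 against 68.3 CPM) and the dicarboxylate carrier Slc13a3 (66.1 against 24.0 CPM), the last not on every plate. The export pump Abcg2 (34.8 against 76.5 CPM, not on every plate) was among 4 that were lower in the pools.

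Among 14 growth factor and receptor genes, Igf2 was higher, and Pdgfa (31.8 against 75.8 CPM), Tek and Angpt2 were lower in the pools. Angpt2 differed in direction between plates, and single cells gave 68.0% of the Tek reads and 50.6% of the Angpt2 reads of the Spp1-positive side. The receptor Fgfr1 had 266 against 146 CPM. In the immediate early and stress list of 18, Fos had 339 against 86.7 CPM, with 1 cell giving 22.4% of its positive reads and plates that differed in direction. The heat shock gene Hspa1a, which has a near-identical neighbouring copy and is therefore uncertain, had 339 against 154 CPM. In the hypoxia and glycolysis list of 17, P4ha2 (83.5 against 36.5 CPM) was higher and Pdk1 (11.7 against 44.2 CPM) lower, with a median of -0.04. The chemokine and complement list of 17 had 1 member 2-fold apart, C1ra (7.70 against 20.2 CPM), with 42.8% of its Spp1-positive reads from 1 cell. No member was 2-fold apart among 19 TGF-beta and BMP genes (median -0.22), 21 oxidative phosphorylation genes (median -0.04) or 3 cell cycle genes (median 0.03). The mural cytochrome oxidase isoform Cox4i2 was lowest of its list, at 254 against 444 CPM.

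**Figure D5:**
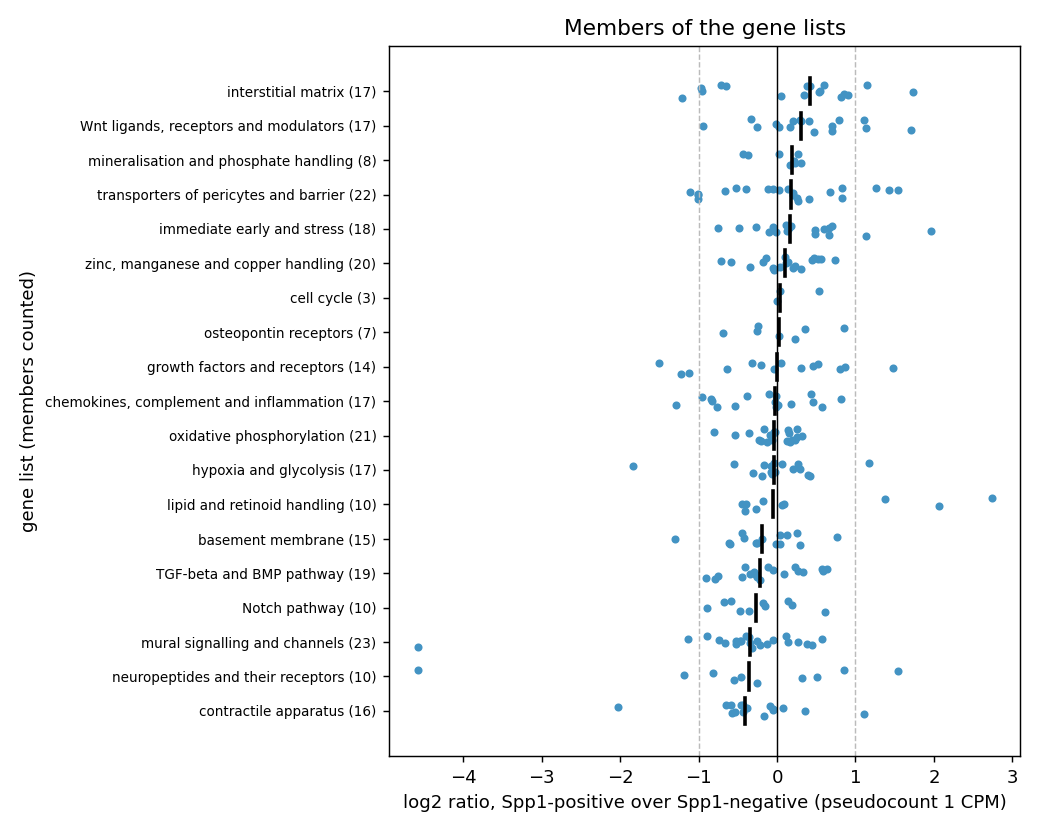
Log2 ratio of Spp1-positive over Spp1-negative pericytes for each counted member of 19 gene lists (points), with the list medians as bars and dashed lines at 2-fold. Medians run from -0.41 in the contractile list to 0.42 in the interstitial matrix list.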

How the data were processed

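The authors deposited a table of raw read counts per gene and single cell, and these deposited counts were used as they stand. Per the submitters' processing notes, STAR 2.4.2a and the mm10 genome were used; for the counting tool, annotation and filters, the sources used here give none. A second, normalized table was not used. Cells were assigned to reporter lines by the labels and to plates by their names. Counts of each side were summed, scaled to CPM and compared as a log2 ratio with a pseudocount of 1 CPM over genes with at least 20 CPM on either side, pooled and within 4 plates. A gene was called at 2-fold or more in the pool with the same direction on every plate. Named genes were the 3 of the question, the 15 called genes with the largest ratio each way that were read in at least 25% of cells of the higher side, and, in each of 19 lists, the highest and lowest members (3 or fewer each). Spp1, the gate genes and the reporters were left out of the 15. 1 lower gene and 1 list member are not reported here, but stay in the counts. The 15 marker sets covered the other cells a sort can hold; doublets were limited by the gate alone, with no doublet caller. No test was planned or made, since the labels name no animal. Coordinates are from GENCODE M21 and promoters from RefSeq. Python 3.11.15, numpy 2.4.6, pandas 2.3.3 and scipy 1.17.1 were used, and the procedure was tested on simulated data. Members, lists and rules were chosen with earlier results of these data known.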

Additional observations from a re-analysis of the deposited data

Results flagged for a closer look

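Col7a1 had 1 plate apart from the other 3. Its log2 ratio was 0.94 on Mural4 and between 1.46 and 1.56 on the other plates, a gap of 0.843 of the whole range, just above the limit set for 4 values. Chance flags about 1 in 20 such groups, and this was the only gene flagged of those examined.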

How the results depend on the processing

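Over 21 alternative settings, all 315 log2 ratios of the 15 higher genes stayed above 0 and at 2-fold or more (1.10 to 3.02), and all 315 of the lower genes stayed below 0 (-4.75 to -0.91), 314 of them at 2-fold or more, with Snhg18 at -0.91 the exception. Settings that changed only the minimum CPM cannot move a ratio, so their values repeat the main ones. The genes were also chosen for their ratio in these same cells, so these counts are a description. No named ratio changed sign, and Nts ranged from 0.49 to 1.39. Counts of genes moved more. Against 119 higher and 259 lower genes called and 32 list members 2-fold apart in the pools, a minimum of 5 CPM gave 536 lower genes and 63 list members, a minimum of 50 CPM gave 65 higher, 81 lower and 18 list members, and no minimum gave 824 lower and 108 list members. Leaving out each plate in turn gave 190 to 218 higher and 394 to 441 lower genes, since direction was then asked of fewer plates. Without cells high in fibroblast, microglia or macrophage markers, 113 genes were higher (64 of the 119) and 376 lower (161 of the 259). Without cells high in fibroblast markers other than Apod, 116 were higher (87 of the 119) and 310 lower (196 of the 259). Asking for a read in at least 25% of cells gave 24 higher, 30 lower and 10 list members, and leaving out each gene's top cell gave 54 higher, all among the 119, and 482 lower, 230 of them among the 259. These last alternatives, and the one without cells high in fibroblast markers other than Apod, were chosen after seeing the data. No paired analysis was possible because the labels give no replicate number and each side is 1 sample. Depth limits genes under 20 CPM in 179 cells most.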

Other observations

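Cells of the other reporter lines also met the pericyte gate in small number. Of these 14 cells, 7 had at least 100 CPM of Spp1. Of the 407 mural-line cells outside the gate, 11 did (2.70%, 1.36 to 4.78), and 26.8% had an Spp1 read. The share of gated cells with an Spp1 read under 100 CPM was 15.3%, 17.0%, 12.1% and 23.2% on Mural3, Mural4, Mural5 and Mural6 in turn.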
